A study of Mus musculus with 2 samples.

Results

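Type 1 and type 2 conventional dendritic cells from the same mouse tumours were compared gene by gene. Type 1-like cells were the 369 cells of the authors' subcluster 6 and type 2-like cells the 524 cells of their subcluster 4, in the deposited clustering at resolution 0.8, so that 893 of the 5976 cells in the series entered. They are called type 1 and type 2 cells here. The sort took cells with CD45 and JAML on their surface from the tumours of 3 mice, which were told apart by antibody hashtags and captured in 1 droplet library with 10x Genomics 5' v2 chemistry. The hashtag names carry B16F10, a mouse melanoma line, together with isotype and CTRL, and all 3 mice form 1 group with no treated group beside it. Strain, sex, age and tumour site are not given in the sources used here. JAML, the junction adhesion molecule-like receptor, is a surface protein of leukocytes that binds the product of Cxadr on neighbouring cells. Because the sort selected for it, the cells stand for the JAML-bearing members of each type, and their shares are shares of the sort. In the labels these cells are named T cells, and in the extraction label TREG cells.

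Conventional dendritic cells take up antigen in a tissue, carry it to lymph nodes and show it to T cells. Type 1 cells need the transcription factors IRF8 and BATF3, bind the debris of dead cells through CLEC9A and load its antigens onto MHC class I for CD8 T cells, a route called cross-presentation. Type 2 cells use IRF4 and ZEB2, carry SIRPα and CD11b on their surface, and are known for presenting antigen on MHC class II to CD4 T cells.

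Mouse 1 gave 147 type 1 and 277 type 2 cells, mouse 2 gave 71 and 104, and mouse 3 gave 151 and 143. Type 1 cells made up 6.01, 6.0 and 6.46% of the cells of mice 1, 2 and 3, and type 2 cells 11.3, 8.78 and 6.11%. The share of type 1 cells was thus alike in the 3 mice, while that of type 2 cells was lowest in mouse 3, and with 3 pairs the smallest p an exact sign-flip test allows is 0.25. The median cell held 26945 UMIs and 4405 genes among type 1 cells and 24415.5 UMIs and 4220.5 genes among type 2 cells, where a UMI (unique molecular identifier) marks 1 captured RNA molecule. The median share of mitochondrial UMIs was 1.74% and 1.47%. Summed per mouse and type, the 6 profiles held 1888619 to 6901013 UMIs. No barcode occurred more than once, and none of the 893 cells lacked a hashtag.

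The label of each type was checked on its markers, which are no result of the comparison because the authors' clusters were made from the same RNA. Xcr1, the receptor for the chemokine XCL1 (mm10, chromosome 9, 123852315 to 123862029, minus strand), was at 535, 387 and 307 CPM in type 1 cells of mice 1, 2 and 3 and 3.04, 1.10 and 2.08 CPM in type 2 cells. Cd209a, a lectin of the DC-SIGN family (chromosome 8, 3743397 to 3748984, minus strand), was at 15.4, 67.8 and 16.5 CPM in type 1 cells of mice 1, 2 and 3 and 1032, 1428 and 1064 CPM in type 2 cells. CPM are UMI counts scaled to the same total in each summed profile. Xcr1 was low in type 2 cells of all 3 mice, whereas the Cd209a level of type 1 cells in mouse 2 stood above that of the other mice. In type 1 cells, 76.3% of the Cd209a UMIs lay in 10 cells. At least 1 Xcr1 UMI was found in 90.8% of type 1 cells, 4.39% of type 2 cells and 1.25% of T cell-like cells, whose median depth was 10353 UMIs. With cells of at least 17032 UMIs thinned to that depth, and shallower cells left out, these shares were 89.4%, 3.96% and 1.69%. The shares before and after thinning are thus not of the same set of cells. Among type 1 cells 285 held Xcr1 without Cd209a, 10 Cd209a without Xcr1, 50 both and 24 neither, and among type 2 cells these numbers were 1, 426, 22 and 75. No doublet caller was run on the cells.

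Marker genes of the dendritic cell types followed the labels. Of 21 type 1 genes tested, 21 were higher in type 1 cells, with a median log2 fold change of 3.53, and of 22 type 2 genes 21 were lower, with a median of -4.44 (Cd4 did not pass). Markers of other cells were present in both types. T cell markers summed to 136 to 221 CPM in type 1 cells and 241 to 422 CPM in type 2 cells, against 10614 CPM in the T cell-like subcluster that held most of them. Macrophage markers summed to 32.9 to 106 and 149 to 272 CPM, against 4125 CPM in the authors' subcluster 2, a macrophage-like one, and Ms4a7 was at 0 in type 1 cells. Plasmacytoid markers summed to 477 to 710.05 and 648 to 709.9 CPM, against 17403 CPM in a plasmacytoid-like subcluster. Monocyte markers summed to more, 1290 to 1509 CPM in type 1 and 1676 to 1907 CPM in type 2 cells, against 8316 CPM in subcluster 13, the one with most. B cell markers summed to 159 to 204 and 94.5 to 219.8 CPM, against 1494 CPM in subcluster 0, where they were highest, and Cd79a was at 0 in type 1 cells. Subclusters 13 and 0 both belong to the authors' Siglech cluster, which is plasmacytoid-like. Neither value is thus the level of a monocyte or B cell cluster. Markers of NK cells and of tumour and stroma stayed between 6.35 and 24.7 CPM in both types.

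**Figure D1:**
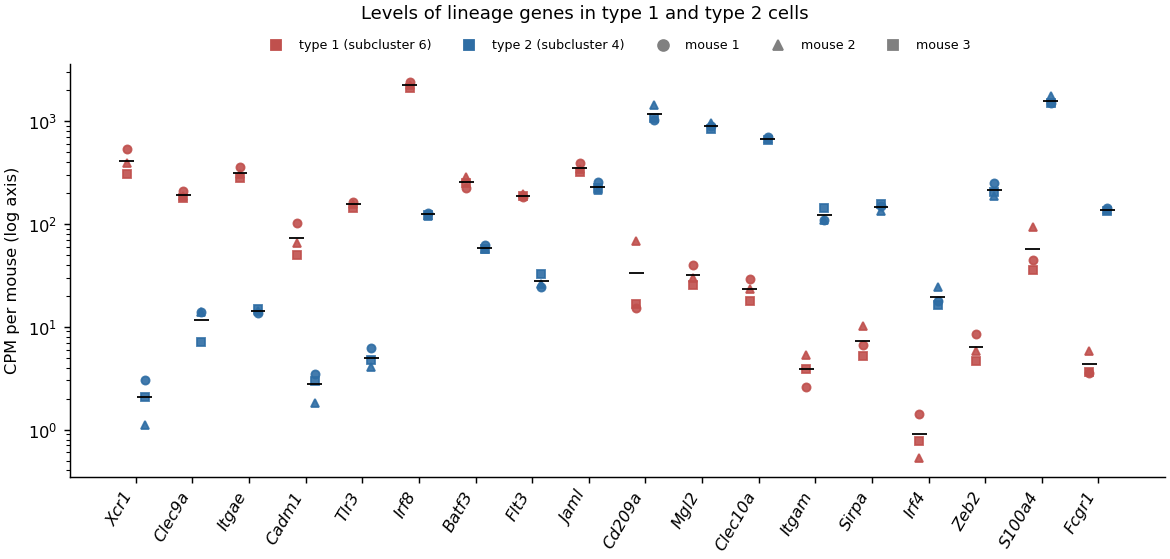
CPM of 18 lineage genes on a log axis, 1 point per mouse (circle, triangle and square for mice 1, 2 and 3) in type 1 (red) and type 2 cells (blue), with a bar at the mean of the 3 mice. For every gene drawn, the 3 points of a type lie apart from the 3 points of the other, and Jaml has the narrowest gap.

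Across the transcriptome the types differed widely. Of 9593 genes tested, 3434 (35.8%) passed an adjusted p of 0.05 in edgeR's quasi-likelihood test with Benjamini-Hochberg adjustment, 1642 (17.1%) of them higher and 1792 (18.7%) lower in type 1 cells. The counts of the list members given below are to be read against these shares. The median log2 fold change of all genes was 0.01, where a positive value means higher in type 1 cells, and each fold change is given with the standard error of the fit. More than 4-fold differences were found for 197 genes higher and 364 lower, and more than 16-fold for 39 and 108. The levels of the 3 type 1 profiles did not overlap those of the 3 type 2 profiles in 4304 genes (44.9%). Since the clusters rest on the same RNA, these p-values set a difference against the spread between 3 mice and are no test of whether the clusters exist. Cells were also taken from the whole series by transcripts, with at least 2 UMIs of Xcr1 and none of Cd209a or the reverse. Cells with a UMI of Cd3d, Cd3e, Cd3g or Siglech were left out of this choice. The cells so chosen numbered 133 and 225, and 78.2% and 75.1% of them lay in the matching subcluster. They gave 2110 calls among 8120 genes (26%), of which 1904 had the same direction and passed between the subclusters and 5 passed with the opposite direction.

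The genes highest in type 1 cells relative to type 2 cells included known lineage genes and signalling genes. After Xcr1, the largest differences among genes with at least 30 CPM were those of Gcsam, Plpp1, Snx22, Rasgrp3, Tlr3, Pianp, Cadm1, Itgae, Plcb4, Sema4f, Irf8, Agpat3, Dbn1 and Clec9a. Gcsam, a signalling adaptor first described in germinal centre B cells, was at 146, 132 and 131 CPM in type 1 cells of mice 1, 2 and 3 and 0.435, 0.366 and 2.08 CPM in type 2 cells (log2 fold change 7.33 ± 0.24, adjusted p = 7.4e-10). Plpp1, a lipid phosphatase, was at 79.4, 43.4 and 34.2 CPM in type 1 cells of mice 1, 2 and 3 and 0, 1.46 and 0.595 CPM in type 2 cells (log2 fold change 6.92 ± 0.42, adjusted p = 1.0e-07). Rasgrp3, an activator of Ras-family GTPases, was at 35.9, 42.9 and 25.5 CPM in type 1 cells of mice 1, 2 and 3 and 0.869, 1.10 and 1.19 CPM in type 2 cells (log2 fold change 5.09 ± 0.25, adjusted p = 1.8e-08). For each of the 15 genes, which were chosen by fold change, the levels of the types did not overlap. Of these 15 genes, 14 had their highest level among all 16 subclusters in type 1 cells. The exception was Irf8, which reached 3290.1 ± 80.9 and 3216 ± 114 CPM (SD, n = 3) in 2 plasmacytoid-like subclusters. A highest level did not always set type 1 cells apart from other cells, since Agpat3 was at 99.2 ± 14.5 CPM in type 1 cells and 87.5 ± 13.6 CPM in the T cell-like subcluster 1 (SD, n = 3), a difference smaller than the spread between mice.

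The genes highest in type 2 cells relative to type 1 cells included sugar receptors and interferon-stimulated genes, and most had a higher level still in another subcluster. In order of fold change they were Pgf, Clec4n, Tgm2, Creb5, Mrc1, Sirpb1c, Ifit3b, Clec4a3, Ffar2, Mcemp1, Cd209a, Ifit3, Ccr1, Clec4a1 and Zeb2os. Pgf, which encodes placental growth factor, had 427 UMIs in type 2 cells and 2 in type 1 cells, a ratio of 164 (95% counting interval 45.2 to 1362). Clec4n, which encodes the fungal sugar receptor dectin-2, was at 3.54, 2.12 and 1.29 CPM in type 1 cells of mice 1, 2 and 3 and 224, 223 and 238 CPM in type 2 cells (log2 fold change -6.52 ± 0.18, adjusted p = 2.0e-10). Ffar2, a receptor for short-chain fatty acids, was at 3.07, 0.529 and 2.31 CPM in type 1 cells of mice 1, 2 and 3 and 134, 94 and 94.2 CPM in type 2 cells (log2 fold change -5.55 ± 0.19, adjusted p = 9.7e-10). None of the levels of the types overlapped for these genes, which were chosen by fold change as well. Of these 15 genes, 4 were highest among the 16 subclusters in type 2 cells (Pgf, Creb5, Ffar2 and Cd209a). Pgf was at 35.6 ± 12.7 CPM there and 21.2 ± 12.3 CPM in subcluster 12, the next highest (SD, n = 3). Creb5 was at 66.7 ± 3.3 and 52.8 ± 14.7 CPM in subcluster 2. Ffar2 was at 108 ± 23.2 and 57.2 ± 40.9 CPM in subcluster 11, and Cd209a at 1175 ± 220 and 776 ± 319 CPM in subcluster 13. Each lead was close in size to the spread between mice in the other subcluster. The macrophage-like subcluster 2 had more of several others, and type 2 cells held 52.9% of its Clec4n level, 46.3% of its Mrc1 level and 23.6% of its Ccr1 level. By contrast they held 3.73% of its C1qa and 2434% of its Cd209a. Zeb2os lies antisense to Zeb2, and whether the counting used strand is not given in the sources used here.

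**Figure D2:**
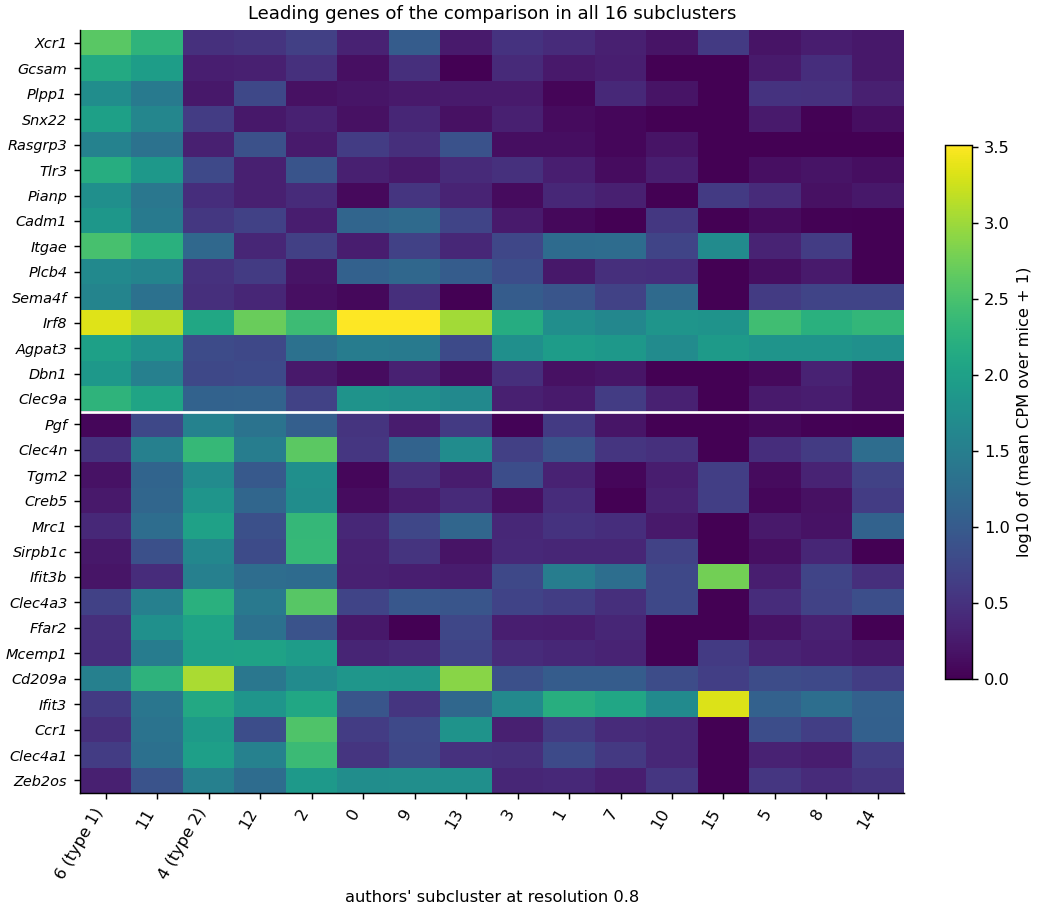
Mean CPM over mice, as log10 of CPM plus 1 in colour, of the 15 genes with the largest difference in each direction (rows, type 1 above the white line) in the authors' 16 subclusters (columns). The upper rows are bright in subclusters 6 and 11, both of the authors' Xcr1 cluster, while many lower rows are also bright in subcluster 2, the macrophage-like one.

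The transcription factors named above for the lineages, Irf8, Batf3, Irf4 and Zeb2, differed strongly and in the known directions. Of 42 transcription factors of dendritic cells tested, 16 were higher and 21 lower in type 1 cells, with a median log2 fold change of -0.39. Irf8 was at 2374, 2232 and 2088 CPM in type 1 cells of mice 1, 2 and 3 and 129, 120.0 and 122 CPM in type 2 cells (log2 fold change 4.20 ± 0.06, adjusted p = 2.5e-12). Batf3, its partner in the type 1 programme, was at 225, 286 and 253 CPM in type 1 cells of mice 1, 2 and 3 and 62.5, 57.1 and 56.8 CPM in type 2 cells (log2 fold change 2.12 ± 0.09, adjusted p = 9.1e-09). Id2, an inhibitor of E proteins, was at 1455, 1452 and 1195 CPM in type 1 cells of mice 1, 2 and 3 and 308, 253 and 271 CPM in type 2 cells (log2 fold change 2.33 ± 0.07, adjusted p = 5.1e-10). These 3 factors were several-fold higher in every type 1 profile than in any type 2 profile, yet none was absent from type 2 cells. Mycl, a Myc family member of dendritic cells, was at 117, 125 and 108 CPM in type 1 cells of mice 1, 2 and 3 and 9.56, 6.58 and 9.81 CPM in type 2 cells (log2 fold change 3.73 ± 0.14, adjusted p = 1.6e-09). Klf2, a regulator of trafficking and quiescence, was at 728, 587 and 1016 CPM in type 1 cells of mice 1, 2 and 3 and 84.5, 132 and 218 CPM in type 2 cells (log2 fold change 2.54 ± 0.15, adjusted p = 1.1e-07). Klf2 was highest in mouse 3 in both types, and its levels still did not overlap.

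In the opposite direction, Zeb2 was at 8.50, 5.82 and 4.63 CPM in type 1 cells of mice 1, 2 and 3 and 248, 186 and 203 CPM in type 2 cells (log2 fold change -5.03 ± 0.13, adjusted p = 1.6e-10). Irf4 was at 1.42, 0.529 and 0.772 CPM in type 1 cells of mice 1, 2 and 3 and 17.7, 24.1 and 16.3 CPM in type 2 cells (log2 fold change -4.13 ± 0.32, adjusted p = 9.8e-07). Irf4 was thus a low-level transcript even in type 2 cells, and after thinning to 17032 UMIs per cell it was found in 21.6% of type 2 cells, 1.43% of type 1 cells and 14.9% of T cell-like cells (28.2%, 2.44% and 9.80% before thinning). Thinning left out the cells below that depth, which were 20 type 1, 70 type 2 and 2086 of 2797 T cell-like cells. It was used for every share given below. Shares before thinning are of all cells, so for T cell-like cells above all the values do not show the effect of depth alone. Bhlhe40, Irf2 and Cebpb were also lower in type 1 cells, at log2 fold changes of -1.98, -1.25 and -1.30. Spib, Nfil3, Batf, Etv6 and Maf did not pass the test.

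Sensors of microbes and damage divided between the types. Of 24 pattern recognition receptors tested, 6 were higher and 10 lower in type 1 cells. Tlr3, the endosomal receptor for double-stranded RNA, was at 165, 156 and 144 CPM in type 1 cells of mice 1, 2 and 3 and 6.23, 4.02 and 4.76 CPM in type 2 cells (log2 fold change 4.92 ± 0.13, adjusted p = 1.6e-10). Tlr11, which binds profilin of protozoa, was at 50.1, 31.8 and 32.2 CPM in type 1 cells of mice 1, 2 and 3 and 8.84, 1.46 and 1.19 CPM in type 2 cells (log2 fold change 3.15 ± 0.29, adjusted p = 3.9e-06). Tlr3 was low in every type 2 profile, while the Tlr11 level of type 2 cells came mostly from mouse 1. Cd180, Unc93b1, which carries the endosomal receptors, and Ticam1, the adaptor of Tlr3, were higher by smaller log2 fold changes of 0.78, 0.50 and 0.91, and the Ticam1 call was lost with DESeq2 (adjusted p = 0.0723). Among the receptors that were lower in type 1 cells were Cd14 and Ddx58. Cd14, a co-receptor for lipopolysaccharide, was at 3.07, 3.71 and 8.49 CPM in type 1 cells of mice 1, 2 and 3 and 53.9, 48.3 and 77 CPM in type 2 cells (log2 fold change -3.52 ± 0.18, adjusted p = 3.1e-08). Ddx58, which encodes the RNA sensor RIG-I, was at 4.49, 3.18 and 3.86 CPM in type 1 cells of mice 1, 2 and 3 and 49, 50.5 and 57.4 CPM in type 2 cells (log2 fold change -3.67 ± 0.18, adjusted p = 1.4e-08). Both were low in every type 1 profile. Tlr1, Tlr2 and Ifih1 were lower, at log2 fold changes of -3.77, -2.03 and -1.50. Tlr4 was among 8 receptors that did not pass the test, and Tlr7, Tlr8 and Tlr9 had too few UMIs to be tested.

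C-type lectins and Fc receptors, the surface receptors for sugars and antibodies, were mostly features of type 2 cells. Of 20 lectins 4 were higher and 14 lower in type 1 cells (median log2 fold change -3.98), and of 20 Fc receptors, paired receptors and their adaptors 2 were higher and 18 lower (median -2.43). Clec10a, a receptor for galactose-type sugars, was at 29.1, 23.3 and 17.7 CPM in type 1 cells of mice 1, 2 and 3 and 703, 662 and 655 CPM in type 2 cells (log2 fold change -4.82 ± 0.11, adjusted p = 6.2e-11). Mgl2, its close homolog, was at 39.4, 29.7 and 25.5 CPM in type 1 cells of mice 1, 2 and 3 and 899.6, 953 and 844 CPM in type 2 cells (log2 fold change -4.78 ± 0.11, adjusted p = 6.0e-11). Levels of Mgl2 and Clec10a were steady between mice in type 2 cells, while in type 1 cells both were highest in mouse 1 and lowest in mouse 3. Fcgr1, the high-affinity receptor for IgG, was at 3.54, 5.82 and 3.60 CPM in type 1 cells of mice 1, 2 and 3 and 141, 136 and 133 CPM in type 2 cells (log2 fold change -5.04 ± 0.15, adjusted p = 3.5e-10). Fcer1g, the signalling chain shared by many Fc receptors and lectins, was at 303, 400.3 and 347 CPM in type 1 cells of mice 1, 2 and 3 and 2079.8, 1878 and 1870.0 CPM in type 2 cells (log2 fold change -2.45 ± 0.08, adjusted p = 1.0e-09). Fcgr1, a gene also used to mark monocyte-derived cells, was found in 72.5% of type 2 cells, 6.59% of type 1 cells and 6.61% of T cell-like cells (77.1%, 9.49% and 4.61% before thinning), and its type 2 level was 24.9% of that in the macrophage-like subcluster. The part of macrophage RNA in these levels was not tested. All 18 Fc receptor calls and all 14 lectin calls in this direction passed again when cells with at least 2 UMIs of T cell, plasmacytoid or macrophage markers were left out. The markers were Cd3d, Cd3e and Cd3g, Siglech and Klk1, and C1qa and C1qb. No monocyte gene was among them.

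The lectins higher in type 1 cells were Clec9a, Clec1b, Ly75 and Clec12a. Clec9a was at 207, 186 and 178 CPM in type 1 cells of mice 1, 2 and 3 and 13.9, 13.9 and 7.13 CPM in type 2 cells (log2 fold change 4.06 ± 0.14, adjusted p = 8.8e-10). Ly75, the endocytic receptor DEC-205, was at 47, 29.1 and 31.4 CPM in type 1 cells of mice 1, 2 and 3 and 6.96, 2.56 and 4.76 CPM in type 2 cells (log2 fold change 2.90 ± 0.18, adjusted p = 1.5e-07). Clec9a was found in 14.1% of type 2, 94% of type 1 and 1.13% of T cell-like cells (18.1%, 95.4% and 1.54% before thinning). Clec1b and Clec12a were higher, at log2 fold changes of 3.66 and 0.84.

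Most genes of antigen presentation on MHC class II were lower in type 1 cells, by amounts that varied widely. Of 19 genes tested, 3 were higher and 13 lower in type 1 cells, but the median log2 fold change was only -0.20. H2-Ab1, a class II chain singled out after its values were seen, was at 11404, 11132 and 10988 CPM in type 1 cells of mice 1, 2 and 3 and 11633, 12129 and 12006 CPM in type 2 cells and did not pass the test (log2 fold change -0.06 ± 0.04, adjusted p = 0.24). Ctss, the cathepsin that trims the invariant chain, was at 574, 595 and 559.9 CPM in type 1 cells of mice 1, 2 and 3 and 1652, 1465 and 1353 CPM in type 2 cells (log2 fold change -1.33 ± 0.06, adjusted p = 1.1e-08). Ctsd, another lysosomal protease, was at 15.6, 15.4 and 18.5 CPM in type 1 cells of mice 1, 2 and 3 and 93.8, 90.7 and 102 CPM in type 2 cells (log2 fold change -2.49 ± 0.11, adjusted p = 8.7e-09). H2-Ab1 was near the same level in every profile, while both proteases were lower in all 3 type 1 profiles. H2-DMb2, a chain of the peptide exchanger of class II, was lower, at a log2 fold change of -1.86. The 3 genes that were higher in type 1 cells were March1, a ubiquitin ligase for class II, H2-Ob, a chain of the DM inhibitor, and Cd83, with log2 fold changes of 0.84, 0.86 and 0.45. With no replicate block the Cd83 call was lost (edgeR, adjusted p = 0.0966).

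Genes of class I loading and cross-presentation were split evenly in count, with 12 higher and 12 lower of 33 tested. Wdfy4, which is required for cross-presentation of cell-associated antigen, was at 536, 498 and 472 CPM in type 1 cells of mice 1, 2 and 3 and 80.7, 89.2 and 94.8 CPM in type 2 cells (log2 fold change 2.55 ± 0.09, adjusted p = 1.2e-09). Psmb9, an immunoproteasome subunit, was at 1108, 936 and 1024 CPM in type 1 cells of mice 1, 2 and 3 and 629, 522 and 494 CPM in type 2 cells (log2 fold change 0.94 ± 0.06, adjusted p = 3.2e-07). Rab11a, Pdia3 and Psme1 were higher, at log2 fold changes of 0.93, 0.62 and 0.57. Among the genes that were lower, B2m, the light chain of class I, was at 1856, 1474 and 1579 CPM in type 1 cells of mice 1, 2 and 3 and 2927, 2589 and 2330.2 CPM in type 2 cells (log2 fold change -0.64 ± 0.06, adjusted p = 3.1e-06). H2-K1, a class I heavy chain, was lower, at a log2 fold change of -0.57. Cybb, the catalytic subunit of the phagocyte NADPH oxidase, was at 23.4, 13.8 and 15.9 CPM in type 1 cells of mice 1, 2 and 3 and 230.0, 186 and 195 CPM in type 2 cells (log2 fold change -3.46 ± 0.11, adjusted p = 6.9e-10). Wdfy4 and Cybb thus separated the types in opposite directions by large factors, and B2m by a smaller one with no overlap between the types.

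Genes of dead cell uptake, among them receptors, also divided. Of 14 tested, 5 were higher and 6 lower in type 1 cells. Besides Clec9a, Cd36, a scavenger receptor, was at 65, 38.7 and 39.9 CPM in type 1 cells of mice 1, 2 and 3 and 6.38, 3.66 and 2.97 CPM in type 2 cells (log2 fold change 3.47 ± 0.16, adjusted p = 1.3e-08). Havcr2, which encodes TIM-3, was at 61.4, 56.7 and 54.8 CPM in type 1 cells of mice 1, 2 and 3 and 19.1, 12.8 and 13.7 CPM in type 2 cells (log2 fold change 1.92 ± 0.13, adjusted p = 3.1e-07). Dnase1l3, a nuclease that digests the DNA of dead cells, was higher, at a log2 fold change of 2.69. Axl, a receptor for phosphatidylserine bridged by GAS6, was at 1.42, 2.65 and 0.772 CPM in type 1 cells of mice 1, 2 and 3 and 32.6, 26 and 29.4 CPM in type 2 cells (log2 fold change -4.34 ± 0.28, adjusted p = 2.0e-07). Lrp1 and Mfge8 were lower, at log2 fold changes of -3.92 and -2.71. The uptake genes named with values per mouse thus went in both directions, with no overlap between the types. They were chosen by their small adjusted p, so this lack of overlap was largely fixed by the choice. Among all genes tested 44.9% did not overlap.

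**Figure D3:**
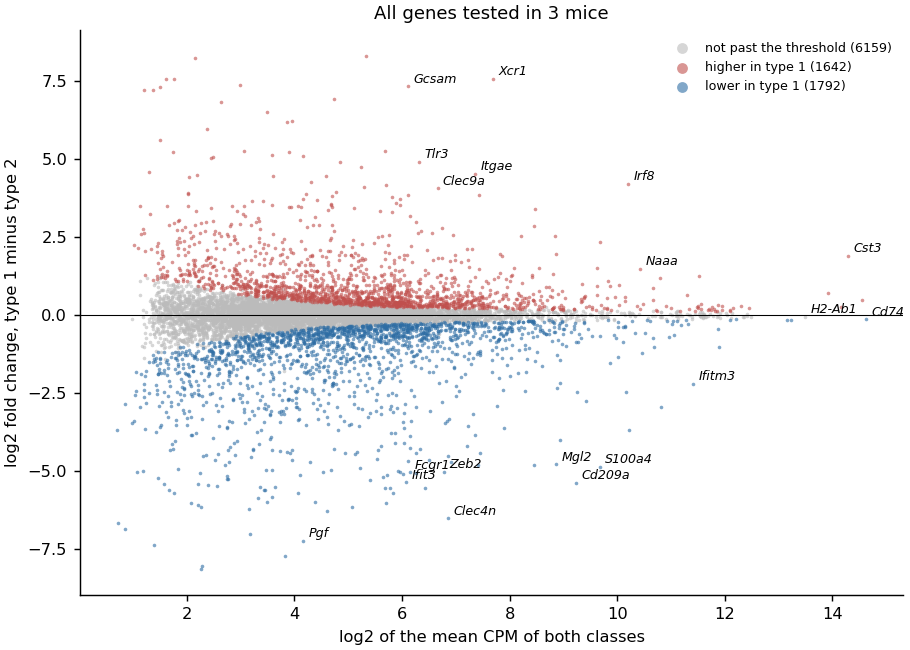
Log2 fold change (type 1 minus type 2) of all 9593 genes tested against the log2 of their mean CPM over the 6 profiles. Red points are the 1642 genes higher in type 1 cells, blue points the 1792 genes lower, and grey points did not pass the test. Cst3 and Irf8 stand out among abundant genes above the line, and Cd209a, Mgl2 and S100a4 below it.

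Chemokines were mostly higher in type 2 cells. Of 14 tested with edgeR, 11 were lower in type 1 cells and 0 higher (0 at an unadjusted p under 0.05 and 0 with DESeq2), with a median log2 fold change of -1.79. Cxcl10, a ligand of CXCR3 on effector T cells, was at 8.03, 13.8 and 5.66 CPM in type 1 cells of mice 1, 2 and 3 and 188, 251 and 256 CPM in type 2 cells (log2 fold change -4.72 ± 0.17, adjusted p = 1.2e-09). Cxcl9, another ligand of CXCR3, was at 112, 60.4 and 85.1 CPM in type 1 cells of mice 1, 2 and 3 and 493, 312 and 275 CPM in type 2 cells (log2 fold change -2.01 ± 0.11, adjusted p = 5.4e-08). Ccl6, a myeloid chemokine, was at 18, 22.2 and 24.9 CPM in type 1 cells of mice 1, 2 and 3 and 324, 238 and 363 CPM in type 2 cells (log2 fold change -3.84 ± 0.12, adjusted p = 4.8e-10). All 3 were higher in type 2 cells of every mouse, and type 1 cells kept a measurable level of Cxcl9. Cxcl10 was found in 24% of type 2, 6.88% of type 1 and 15.3% of T cell-like cells (27.5%, 11.4% and 11% before thinning), and 45.5% of its type 2 UMIs lay in 10 cells. Cxcl2 and Ccl9 were lower in type 1 cells, at log2 fold changes of -4.34 and -5.14. Ccl17, a ligand of CCR4 chosen as a type 2 marker, was at 6.85, 6.35 and 1.03 CPM in type 1 cells of mice 1, 2 and 3 and 85.8, 193 and 122 CPM in type 2 cells (log2 fold change -4.68 ± 0.28, adjusted p = 1.2e-07), and 71.4% of its type 2 UMIs lay in 10 cells. Cxcl16, Ccl4 and Ccl7 did not pass the test.

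Receptors that guide migration differed in both directions. Of 22 tested, 7 were higher and 9 lower in type 1 cells. Cxcr3, the receptor for Cxcl9 and Cxcl10, was at 121, 78.4 and 111 CPM in type 1 cells of mice 1, 2 and 3 and 3.77, 15.7 and 8.32 CPM in type 2 cells (log2 fold change 3.80 ± 0.31, adjusted p = 1.7e-06). Ccr1, a receptor for inflammatory chemokines, was at 2.36, 2.12 and 1.54 CPM in type 1 cells of mice 1, 2 and 3 and 65.8, 82.3 and 99.6 CPM in type 2 cells (log2 fold change -5.29 ± 0.20, adjusted p = 2.2e-09). Cxcr3 RNA was thus higher in the type with less Cxcl9 and Cxcl10, and Ccr1 in the other. Ptger2, P2ry14 and Ccr9 were higher in type 1 cells, at log2 fold changes of 2.53, 1.92 and 1.64, and Cxcr4 and Ccrl2 lower, at log2 fold changes of -2.71 and -3.39. Ccr9 is also a plasmacytoid marker, and its call was lost without the cells that carried markers of other lineages (log2 fold change 0.82, adjusted p = 0.113). Ccr2, singled out after its values were seen, was at 363, 373 and 297 CPM in type 1 cells of mice 1, 2 and 3 and 314, 316 and 309 CPM in type 2 cells and did not pass (log2 fold change 0.16 ± 0.07, adjusted p = 0.11), though it passed as higher without mouse 3.

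Among cytokines, 2 of 12 tested were higher and 6 lower in type 1 cells. Il1b was at 169, 173 and 332 CPM in type 1 cells of mice 1, 2 and 3 and 496, 447 and 571 CPM in type 2 cells (log2 fold change -1.19 ± 0.12, adjusted p = 9.2e-06). Il18, of the same cytokine family, was at 45.1, 51.9 and 52.7 CPM in type 1 cells of mice 1, 2 and 3 and 17.8, 15.4 and 15.8 CPM in type 2 cells (log2 fold change 1.60 ± 0.13, adjusted p = 1.8e-06). Ltb, which encodes lymphotoxin beta, was at 11.8, 14.3 and 11.8 CPM in type 1 cells of mice 1, 2 and 3 and 84.2, 104 and 107 CPM in type 2 cells (log2 fold change -2.93 ± 0.12, adjusted p = 5.3e-09). Il1b and Il18 therefore differed in opposite directions, with no overlap between the types in either. Vegfa, the vascular growth factor, Osm and Il1rn, the interleukin 1 antagonist, were lower in type 1 cells, at log2 fold changes of -2.68, -4.38 and -4.49, and Il16 was higher, at a log2 fold change of 1.11. With cells chosen by Xcr1 or Cd209a UMIs the Il1rn difference was lost (log2 fold change -0.056, adjusted p = 0.98). Il12a, Il12b and Il6 had too few UMIs to be tested.

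Receptors for growth factors and cytokines were mostly higher in type 2 cells, with 3 of 33 higher and 21 lower in type 1 cells (median log2 fold change -0.85). Flt3, the receptor that drives dendritic cell development, was at 181, 194 and 186 CPM in type 1 cells of mice 1, 2 and 3 and 24.3, 26 and 32.7 CPM in type 2 cells (log2 fold change 2.80 ± 0.10, adjusted p = 1.8e-09). Csf1r, the receptor of the macrophage growth factor, was at 2.60, 4.24 and 2.57 CPM in type 1 cells of mice 1, 2 and 3 and 61.4, 64 and 74 CPM in type 2 cells (log2 fold change -4.46 ± 0.18, adjusted p = 4.3e-09). Il1r2, a decoy receptor that binds interleukin 1, was at 7.79, 9.0 and 18 CPM in type 1 cells of mice 1, 2 and 3 and 258, 259 and 471 CPM in type 2 cells (log2 fold change -4.80 ± 0.11, adjusted p = 5.9e-11). Flt3 and Csf1r formed opposite pairs in every mouse, and Il1r2 was highest in mouse 3. The Csf1r level of type 2 cells was 20.0% of that in the macrophage-like subcluster, and their Il1r2 level 841% of it. Il2rg, the common gamma chain, was lower, at a log2 fold change of -3.39, and Kit was higher, at a log2 fold change of 0.82.

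Ligands that costimulate or restrain T cells were also mostly lower in type 1 cells, with 3 of 25 higher and 14 lower (median log2 fold change -0.71). Without mouse 3 the higher count was 5. Cd274, which encodes PD-L1, was at 22.2, 10.1 and 17.2 CPM in type 1 cells of mice 1, 2 and 3 and 82.5, 69.1 and 85 CPM in type 2 cells (log2 fold change -2.16 ± 0.15, adjusted p = 3.0e-07). Cd40, the receptor for T cell help, was at 18.9, 23.8 and 10.8 CPM in type 1 cells of mice 1, 2 and 3 and 70, 71.7 and 48.7 CPM in type 2 cells (log2 fold change -1.85 ± 0.13, adjusted p = 4.6e-07). Btla, an inhibitory receptor, was at 138, 133 and 135 CPM in type 1 cells of mice 1, 2 and 3 and 19.1, 18.3 and 14.9 CPM in type 2 cells (log2 fold change 2.98 ± 0.11, adjusted p = 1.5e-09). Type 1 cells thus had less Cd274 and Cd40 and more Btla in all 3 mice. Tnfsf9, the ligand of 4-1BB, and Cd200r1 were lower, at log2 fold changes of -2.59 and -1.85, and Slamf7 was higher, at a log2 fold change of 0.57. Cd86, singled out after its values were seen, was at 153, 127 and 109.6 CPM in type 1 cells of mice 1, 2 and 3 and 129, 105 and 124 CPM in type 2 cells and did not pass (log2 fold change 0.14 ± 0.10, adjusted p = 0.3), though it too passed as higher without mouse 3.

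Genes of dendritic cell maturation and migration followed the same lean, with 4 of 24 higher and 16 lower in type 1 cells (median log2 fold change -0.94). Cd80, a costimulatory ligand, was at 4.49, 5.29 and 5.40 CPM in type 1 cells of mice 1, 2 and 3 and 22.2, 22.3 and 37.5 CPM in type 2 cells (log2 fold change -2.42 ± 0.20, adjusted p = 1.8e-06). Socs2, Samsn1 and Nfkb1 were lower, at log2 fold changes of -4.29, -2.20 and -0.89. Cacnb3 and Bcl2l14 were higher, at log2 fold changes of 2.95 and 2.39. The list therefore held genes of both directions, and the type 2 direction was the more frequent.

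Adhesion genes went both ways, with 14 of 30 higher and 10 lower in type 1 cells. Jaml, whose protein the cells were sorted on (chromosome 9, 45079183 to 45108534, plus strand), was at 389, 338 and 319.7 CPM in type 1 cells of mice 1, 2 and 3 and 255, 213 and 223 CPM in type 2 cells (log2 fold change 0.63 ± 0.07, adjusted p = 1.5e-05). Itgae, which encodes the CD103 integrin chain (chromosome 11, 73090583 to 73147446, plus strand), was at 361, 302 and 277 CPM in type 1 cells of mice 1, 2 and 3 and 13.5, 14.3 and 14.9 CPM in type 2 cells (log2 fold change 4.54 ± 0.11, adjusted p = 1.3e-10). Cadm1, an adhesion molecule of the immunoglobulin family, was at 102, 65.7 and 49.4 CPM in type 1 cells of mice 1, 2 and 3 and 3.48, 1.83 and 2.97 CPM in type 2 cells (log2 fold change 4.75 ± 0.18, adjusted p = 2.4e-09). Jaml was present in every profile and differed by a small factor, while Itgae and Cadm1 were at low levels in type 2 cells of every mouse. Itgam, which encodes CD11b, was at 2.60, 5.29 and 3.86 CPM in type 1 cells of mice 1, 2 and 3 and 109, 110.1 and 144 CPM in type 2 cells (log2 fold change -5.03 ± 0.16, adjusted p = 6.9e-10). Sirpa, the receptor for the CD47 signal, was at 6.61, 10.1 and 5.14 CPM in type 1 cells of mice 1, 2 and 3 and 149.5, 133 and 158 CPM in type 2 cells (log2 fold change -4.42 ± 0.16, adjusted p = 1.6e-09). The tetraspanins Cd9 and Cd81 were higher in type 1 cells, at log2 fold changes of 1.35 and 3.68, and Itgax, which encodes CD11c, was lower, at a log2 fold change of -1.16. Cxadr, the gene of the JAML ligand, had 1 UMI in all 893 cells and was not tested.

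Interferon-stimulated genes, which cells switch on after type I or type II interferon, were mostly lower in type 1 cells. Of 45 tested, 34 were lower and 3 higher, with a median log2 fold change of -1.53. Ifit3, an antiviral protein that binds other members of its family, was at 3.07, 2.12 and 3.60 CPM in type 1 cells of mice 1, 2 and 3 and 124, 137 and 136 CPM in type 2 cells (log2 fold change -5.36 ± 0.15, adjusted p = 2.8e-10). It was at a low level in type 1 cells of all 3 mice. Rtp4, which restrains viral RNA replication, was at 4.72, 4.77 and 3.60 CPM in type 1 cells of mice 1, 2 and 3 and 169, 141 and 135 CPM in type 2 cells (log2 fold change -5.08 ± 0.13, adjusted p = 1.6e-10). Gbp2, a guanylate-binding protein of host defence, was at 23.9, 16.4 and 20.6 CPM in type 1 cells of mice 1, 2 and 3 and 306, 183 and 156 CPM in type 2 cells (log2 fold change -3.34 ± 0.13, adjusted p = 3.5e-09). Isg15, a ubiquitin-like protein singled out after its values were seen, was at 193, 208 and 160.5 CPM in type 1 cells of mice 1, 2 and 3 and 651, 612 and 501 CPM in type 2 cells (log2 fold change -1.62 ± 0.07, adjusted p = 4.6e-09). Gbp2 varied more between the mice, and Isg15 was present in both types. Ifit3 was found in 47.8% of type 2 cells, 4.87% of type 1 cells and 12.4% of T cell-like cells (52.5%, 5.96% and 30.6% before thinning). Type 2 cells held 108% of the Ifit3 level and 75.5% of the Isg15 level of the macrophage-like subcluster. Of the 34 genes called lower, 33 could be tested without the cells that carried markers of other lineages, and 33 passed in the same direction.

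The list did not behave as a block. Ifi205, a DNA-binding protein of the same response, was higher in type 1 cells, at 628, 657 and 615 CPM in type 1 cells of mice 1, 2 and 3 and 332, 233 and 215 CPM in type 2 cells (log2 fold change 1.33 ± 0.10, adjusted p = 8.3e-07). Trim30a and Stat2 were higher, at log2 fold changes of 0.35 and 0.28, and the Stat2 call was lost without mouse 1, without mouse 2, with DESeq2 and with no replicate block. The Trim30a call was lost with cells chosen by Xcr1 or Cd209a UMIs (adjusted p = 0.0812). Irf7, a central regulator of the response that was singled out after its values were seen, was at 249, 216 and 173 CPM in type 1 cells of mice 1, 2 and 3 and 249, 238 and 175 CPM in type 2 cells and did not pass (log2 fold change -0.02 ± 0.07, adjusted p = 0.89). Its levels overlapped between the types. Near-identical copies such as Ifit3 and Ifit3b can share reads, and how these were counted is not given in the sources used here.

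**Figure D4:**
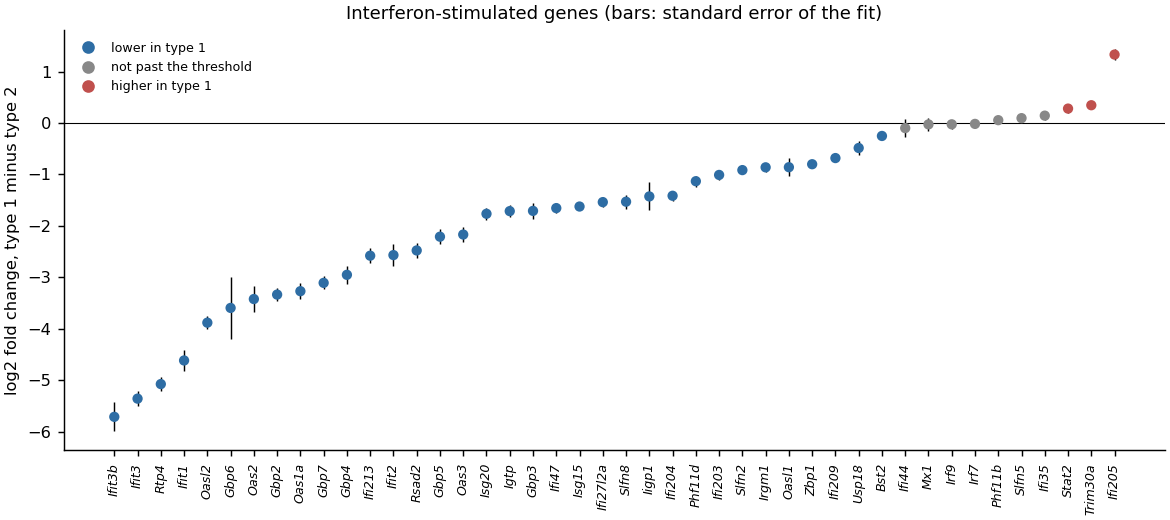
Log2 fold change (type 1 minus type 2) of 44 of the 45 interferon-stimulated genes tested, in order, with bars for the standard error of the fit. They run from Ifit3b at -5.71 to Ifi205 at 1.33, with 34 points in blue (lower), 7 in grey (did not pass) and 3 in red (higher).

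Because these genes were mostly lower together, their upstream sequence was read for the core of the interferon-stimulated response element, GAAANNGAAA or its reverse complement TTTCNNTTTC, in the 250 bases before the start of each gene. Windows came from RefSeq (GRCm38.p6, the build of mm10), which held 25 of the 34 lower genes. The motif was in 17 of these 25 (68%), in 5 of 9 (55.6%) of the other interferon-stimulated genes, in 287 of 7592 genes tested (3.78%) and in 936 of 27025 genes with a window (3.46%). Overlapping matches count once per gene. The motif was thus found in members of the list whether they were lower or not, and a match is a description, not a binding site. 4 sequences are shown, 5′ to 3′ on the gene's strand with the matches in capitals: 2 genes of the list that were lower in type 1 cells, the chemokine gene Cxcl10, and Ifi205, which was higher.
Ifit3: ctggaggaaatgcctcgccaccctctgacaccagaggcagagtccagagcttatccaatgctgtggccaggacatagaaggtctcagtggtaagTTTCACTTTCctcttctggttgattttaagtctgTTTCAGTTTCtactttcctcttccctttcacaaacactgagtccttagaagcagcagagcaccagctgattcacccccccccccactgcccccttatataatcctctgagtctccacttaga
Isg15: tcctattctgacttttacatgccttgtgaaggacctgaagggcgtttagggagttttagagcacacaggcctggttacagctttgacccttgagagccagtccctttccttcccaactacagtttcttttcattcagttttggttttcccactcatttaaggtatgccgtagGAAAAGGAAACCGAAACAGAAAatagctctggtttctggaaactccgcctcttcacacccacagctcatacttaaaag
Cxcl10: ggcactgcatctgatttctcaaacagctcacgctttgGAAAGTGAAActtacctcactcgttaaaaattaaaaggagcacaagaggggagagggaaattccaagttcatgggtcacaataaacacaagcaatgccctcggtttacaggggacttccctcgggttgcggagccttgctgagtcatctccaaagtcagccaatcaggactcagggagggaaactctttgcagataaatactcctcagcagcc
Ifi205: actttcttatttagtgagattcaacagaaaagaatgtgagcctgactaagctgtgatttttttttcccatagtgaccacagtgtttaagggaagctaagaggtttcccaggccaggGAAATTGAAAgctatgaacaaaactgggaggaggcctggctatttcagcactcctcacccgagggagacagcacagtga
They lie at chr19:34583279-34583528 (plus strand), chr4:156200819-156201068 (minus strand), chr5:92348890-92349139 (minus strand) and chr1:174031811-174032005 (minus strand). Bases of the Ifi205 window that another annotation (GENCODE) places inside the gene were left off. Ifit3 has 2 matches, starting 156 and 122 bases before the gene. Isg15 has 3 overlapping ones, of which the farthest starts 78 bases before it. Cxcl10 and Ifi205 have 1 each, at 213 and 134 bases. Distances are counted from the RefSeq start, so that of Ifi205 includes the 55 bases left off. Matches thus stand before genes of both directions.

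S100 proteins and other small myeloid proteins were lower in type 1 cells. Of 8 S100 genes tested 7 were lower and 1 higher, with a median log2 fold change of -2.71. S100a4 was at 44.2, 92.7 and 36 CPM in type 1 cells of mice 1, 2 and 3 and 1494, 1733 and 1492 CPM in type 2 cells (log2 fold change -4.86 ± 0.16, adjusted p = 7.2e-10). S100a6 was at 331, 538 and 369.6 CPM in type 1 cells of mice 1, 2 and 3 and 3020.0, 3450.3 and 3144 CPM in type 2 cells (log2 fold change -2.96 ± 0.08, adjusted p = 2.0e-10). Both calcium-binding proteins were present in type 1 cells at a lower level in every mouse. S100a8 and S100a9, which are abundant in neutrophils, were high in 1 mouse. S100a8 was at 0.945, 1.59 and 3.86 CPM in type 1 cells of mice 1, 2 and 3 and 2.03, 2.93 and 58.3 CPM in type 2 cells (log2 fold change -3.21 ± 0.44, adjusted p = 1.1e-04), and S100a9 at 2.83, 4.24 and 5.66 CPM in type 1 cells of mice 1, 2 and 3 and 2.75, 1.46 and 112 CPM in type 2 cells (log2 fold change -3.01 ± 0.64, adjusted p = 0.0031). Across the 3 mice the levels of the types overlapped for both genes, and in mice 1 and 2 S100a9 was higher in type 1 cells, against the direction of its call. Without mouse 3 neither gene had enough UMIs to be tested. In type 2 cells 91.3% of S100a8 UMIs and 94.0% of S100a9 UMIs lay in 10 cells, and neutrophil and mast cell markers summed to 174 CPM in the type 2 profile of mouse 3 and to 4.25 to 10.6 CPM in the other 5 profiles. Their part in these 2 calls was not tested. Neither call held with no replicate block or with DESeq2, each of which called 4 of the S100 genes lower, and 3 of 6 tested were lower with cells chosen by Xcr1 or Cd209a UMIs. With DESeq2 S100a8 was at a log2 fold change of -2.07 (adjusted p = 0.131) and S100a9 at -0.69 (adjusted p = 0.864).

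Among complement and lysozyme genes and small secreted or membrane proteins, 13 of 17 were lower and 2 higher. Ifitm1, an antiviral membrane protein after which the authors named the cluster of type 2 cells, was at 108, 227 and 188 CPM in type 1 cells of mice 1, 2 and 3 and 1941, 1722 and 2991 CPM in type 2 cells (log2 fold change -3.68 ± 0.18, adjusted p = 1.5e-08). Ifitm3 was at 566, 1085 and 1362 CPM in type 1 cells of mice 1, 2 and 3 and 4294, 4498 and 4571 CPM in type 2 cells (log2 fold change -2.20 ± 0.16, adjusted p = 5.0e-07). Cst3, which encodes the protease inhibitor cystatin C, was at 34627, 30026 and 29605 CPM in type 1 cells of mice 1, 2 and 3 and 9566, 8309 and 7965 CPM in type 2 cells (log2 fold change 1.90 ± 0.03, adjusted p = 6.5e-12). Cst3 was thus several-fold higher in type 1 cells in all 3 mice, with levels close to each other within a type. Cfp, which encodes properdin, was lower, at a log2 fold change of -2.43.

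Lysosomal and lipid genes separated the types further. Of 25 lysosomal genes 5 were higher and 13 lower in type 1 cells. Ppt1, a lysosomal thioesterase, was at 737, 612 and 594 CPM in type 1 cells of mice 1, 2 and 3 and 72.7, 58.2 and 56.8 CPM in type 2 cells (log2 fold change 3.41 ± 0.07, adjusted p = 4.4e-11). Naaa, an amidase of bioactive lipids, was at 2106, 2061 and 1836 CPM in type 1 cells of mice 1, 2 and 3 and 926, 708 and 598 CPM in type 2 cells (log2 fold change 1.48 ± 0.07, adjusted p = 2.0e-08). Psap, the precursor of the saposins, was higher, at a log2 fold change of 1.26, while Ctsa, Ctsc and Lamp1 were lower, at log2 fold changes of -2.45, -1.94 and -1.69. The enzymes of lipid breakdown named here were thus higher in type 1 cells and the cathepsins lower. In lipid handling, with 7 higher and 7 lower of 20, Fabp5, a fatty acid carrier, was at 20.8, 32.8 and 18 CPM in type 1 cells of mice 1, 2 and 3 and 219, 293 and 318 CPM in type 2 cells (log2 fold change -3.55 ± 0.15, adjusted p = 4.3e-09). Ptgs2, the inducible cyclooxygenase, was lower, at a log2 fold change of -4.55, and Fasn, the fatty acid synthase, was higher, at a log2 fold change of 0.79, a call that was lost with cells chosen by Xcr1 or Cd209a UMIs (adjusted p = 0.0585). With those cells 2 of the 7 higher lipid calls held, and 2 of the 6 lower ones that could be tested. DESeq2 kept 4 of the 7 higher and 5 of the 7 lower.

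Glycolysis was lower in type 1 cells, with 14 of 19 genes lower and 1 higher and a median log2 fold change of -0.69. Eno1 was at 259, 293 and 263 CPM in type 1 cells of mice 1, 2 and 3 and 610.5, 647 and 761 CPM in type 2 cells (log2 fold change -1.28 ± 0.08, adjusted p = 1.1e-07). Slc2a1, the glucose transporter GLUT1, was at 22.9, 32.3 and 31.1 CPM in type 1 cells of mice 1, 2 and 3 and 68.1, 66.9 and 108 CPM in type 2 cells (log2 fold change -1.49 ± 0.13, adjusted p = 2.7e-06). Both were highest in the type 2 cells of mouse 3, and the types did not overlap in either. Slc16a3, a lactate exporter, and Egln3 were lower, at log2 fold changes of -1.70 and -3.32, and Pfkp was higher, at a log2 fold change of 0.35, which fell short of the threshold without mouse 1 (0.23, adjusted p = 0.0751).

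Genes that cells switch on within minutes of a stimulus went both ways, with 13 higher and 14 lower of 31 tested. Egr3 was at 94.5, 51.9 and 42.4 CPM in type 1 cells of mice 1, 2 and 3 and 8.40, 8.05 and 2.38 CPM in type 2 cells (log2 fold change 3.43 ± 0.19, adjusted p = 5.2e-08). Nfkbia, the inhibitor that NF-κB induces, was at 119, 161 and 126 CPM in type 1 cells of mice 1, 2 and 3 and 352, 515 and 616 CPM in type 2 cells (log2 fold change -1.82 ± 0.12, adjusted p = 2.1e-07). Egr1, Fos and Nr4a1 were higher, at log2 fold changes of 1.26, 1.20 and 1.09, whereas Gadd45b, Cd69, Nfkbiz and Nr4a3 were lower, at log2 fold changes of -2.13, -2.42, -1.50 and -2.08. Egr1, Egr3 and Fos thus stood higher in type 1 cells, and Nfkbia and Nfkbiz lower.

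Of 24 DNA replication genes tested with edgeR, 15 were higher in type 1 cells and 0 lower (0 at an unadjusted p under 0.05 and 0 with DESeq2), with a median log2 fold change of 0.60. Mcm5, a subunit of the replicative helicase, was at 62.8, 53.5 and 35.8 CPM in type 1 cells of mice 1, 2 and 3 and 30.3, 39.5 and 27.9 CPM in type 2 cells (log2 fold change 0.71 ± 0.15, adjusted p = 0.0025), and its call was lost without mouse 1. Dut and Cdc6 were higher, at log2 fold changes of 1.03 and 1.32. The Mcm5 levels overlapped between the types across mice, with mouse 2 of type 2 above mouse 3 of type 1. This count moved with the cells used. It was 2 without mouse 1, 5 with DESeq2, and 1 when the 141 type 1 and 154 type 2 cells with a UMI of Mki67 or Top2a were left out, that is 38.2% and 29.4% of the cells.

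Markers of other cell types differed between the classes as well. Of 10 T cell markers 8 were lower in type 1 cells with edgeR and 3 with DESeq2, and 0 passed (0 at an unadjusted p under 0.05) with edgeR without the 84 type 1 and 148 type 2 cells that carried markers of other lineages. The cells left out were chosen in part by Cd3d, Cd3e and Cd3g of this same list, so the fall was partly fixed in advance. Of 8 macrophage markers 1 was higher and 6 were lower, among the latter Adgre1 and C1qb at log2 fold changes of -4.33 and -2.86. Type 2 cells held 16% and 6.24% of the macrophage-like subcluster's levels of these genes. The C1qb call was lost without the cells that carried markers of other lineages, of which C1qb was one. Of 9 plasmacytoid markers 5 were higher and 2 lower. Without those cells, which were chosen in part by Siglech and Klk1 of this list, 2 of the 5 higher calls held. The part of such RNA in other results was not tested beyond the counts given.

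**Figure D5:**
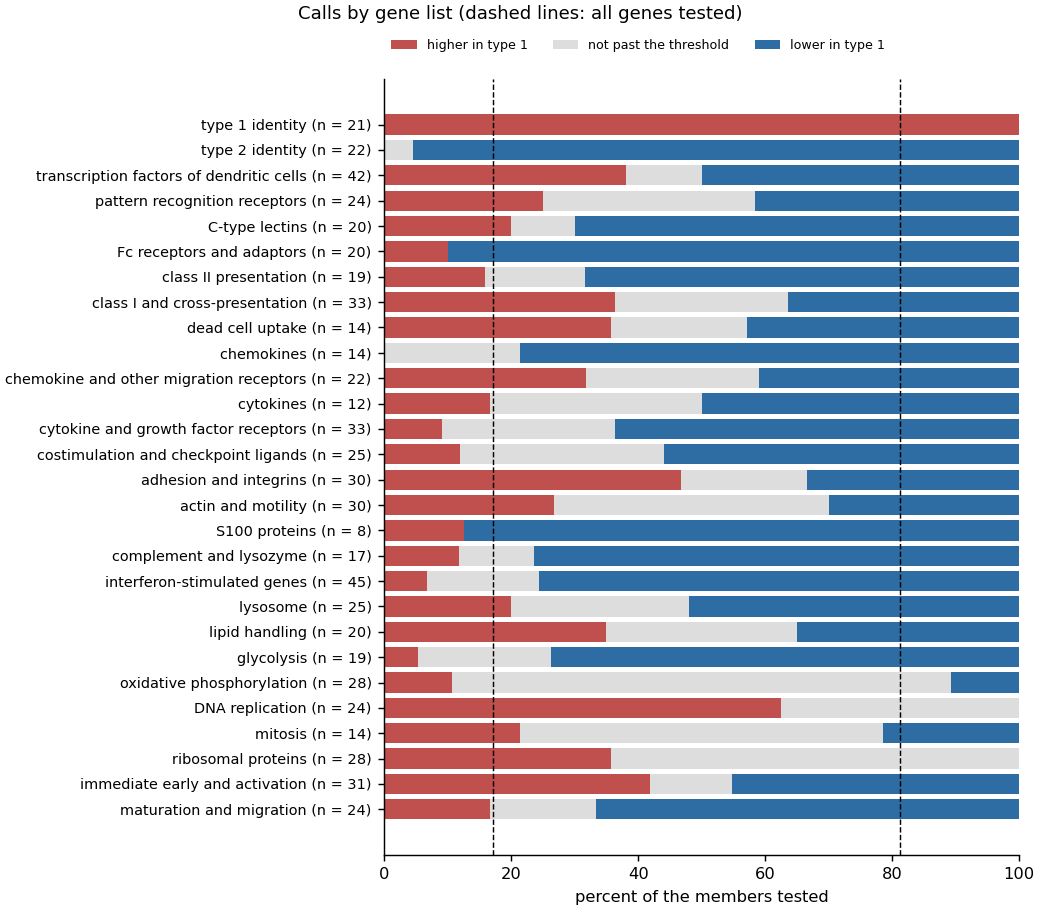
Share of the members tested of each gene list that was higher (red), lower (blue) or did not pass (grey) in type 1 against type 2 cells. Dashed lines mark the shares among all 9593 genes tested, 17.1% higher and 18.7% lower. Type 1 identity, DNA replication and ribosomal proteins have no blue part, and type 2 identity and chemokines no red part.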

How the data were processed

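The deposited matrix holds UMI counts, with no normalization, for 15416 genes and 5976 cells, and the deposited annotation gives each cell's hashtag, cluster numbers and its percent of mitochondrial UMIs. Per the submitters' processing notes the authors used Cell Ranger 3.1.0, Seurat 3.1.5 and the mm10 genome. The authors' cell filters are not given in the sources used here. Counts were summed per mouse and subcluster and compared with edgeR 4.0.16 in R 4.3.3 (quasi-likelihood F test on genes kept by filterByExpr, scaled by TMM, with a term for the mouse and Benjamini-Hochberg adjustment over all genes tested at 0.05). CPM were computed from the sums. The pairing comes from the shared animal, and deviations of the types of a mouse from their group means correlated at 0.113, 0.0680 and 0.118. The correlations across mice were all negative, but deviations within a type sum to 0 over the mice. Positive values within a mouse therefore push the others below 0, and their sign adds nothing. Intervals and levels near 0 cover counting error only. The method was tested on simulated counts.

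The subclusters and gene lists were chosen with earlier results of these data known. Genes named are the 15 called genes per direction with the largest fold change that reached 30 CPM in the higher type and had 1 direction in every mouse (receptor segments, unnamed models, mitochondrial genes and those of ribosomal proteins aside), up to 5 members per list and direction with the smallest adjusted p, members of lists of up to 12 genes, and a fixed set of markers. Results for a few single genes are not reported here. Alternatives were RLE scaling, no filter, DESeq2 1.42.0, no block, each mouse left out, thinned cells, equal cell numbers, cells without markers of other lineages, cells without division markers, the coarse cluster, a gate on transcripts, a threshold of 0.01 and a test against a fold of 2. Coordinates are those of GENCODE vM21 (mm10).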

Additional observations from a re-analysis of the deposited data

How the results depend on the processing

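The main count of 3434 genes was 3441 with RLE scaling, 3885 with no filter on low counts and between 2495 and 3337 when a mouse was left out (1116 to 1578 higher and 1379 to 1759 lower). It fell further under 4 settings. DESeq2 called 1845 genes (805 higher and 1040 lower), and the cause was not tested. The gate on Xcr1 and Cd209a transcripts, with fewer cells and fewer genes tested, called 2110 (974 higher and 1136 lower). At a threshold of 0.01 the count was 2382, with 1075 higher. The test against a fold of 2, a stricter question, called 805 (311 higher and 494 lower). The mouse was kept as a block because the types share animals, and with no replicate block 3112 genes were called, 1459 higher and 1653 lower.

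Of 2274 values recomputed for 153 named genes, 2208 kept their direction and side of the threshold, 57 lost their call, of which 32 under the test against a fold of 2, and 3 gained one. The genes Ccr2, Cd86 and Irf7, which had not passed, changed sign and did not pass then. Ccr2 was at -0.13 on the log2 scale with the transcript gate. Cd86 was at -0.049 without cells of other lineages and at -0.058 without dividing cells. Irf7 was at 0.022 in thinned cells, at 0.019 with the transcript gate, and between -0.061 and 0.027 when a mouse was left out. With no replicate block, 4 named genes lost their call. Genes with few UMIs, such as Il12b, could not be tested at this depth.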

Other observations

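Genes of the actin skeleton and motility showed no common direction, with 8 higher and 9 lower of 30 tested and a median log2 fold change of 0.03. Capg, an actin-capping protein, was at 11.1, 22.8 and 12.6 CPM in type 1 cells of mice 1, 2 and 3 and 213, 348 and 275 CPM in type 2 cells (log2 fold change -4.19 ± 0.11, adjusted p = 1.6e-10). Lmna, a nuclear lamin, was at 30.7, 30.7 and 25.5 CPM in type 1 cells of mice 1, 2 and 3 and 7.82, 9.14 and 13.1 CPM in type 2 cells (log2 fold change 1.61 ± 0.20, adjusted p = 6.0e-05). Vim, which encodes vimentin, was lower, at a log2 fold change of -0.74, and Anxa1 was higher, at a log2 fold change of 1.17. Capg and Lmna thus separated the types in opposite directions in all 3 mice.

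Energy and translation genes differed little. Of 28 genes of oxidative phosphorylation 3 were higher and 3 lower, with a median log2 fold change of 0.01. Of 28 ribosomal protein genes 10 were higher and 0 lower with edgeR (3 lower at an unadjusted p under 0.05, 0 with DESeq2), with a median of 0.06, and 6 were higher without mouse 1 and 5 without mouse 2. Of 14 genes of mitosis tested 3 were higher and 3 lower, although with cells chosen by Xcr1 or Cd209a UMIs, where 24 genes of the list had enough UMIs to be tested, 20 were higher and 0 lower with edgeR (1 lower at an unadjusted p under 0.05). Of the 133 cells chosen by Xcr1, 104 lay in subcluster 6, so the sets of cells differ. Mki67, a marker of cycling cells, was at 20.1, 39.7 and 26.8 CPM in type 1 cells of mice 1, 2 and 3 and 8.98, 17.6 and 6.24 CPM in type 2 cells (log2 fold change 1.44 ± 0.20, adjusted p = 1.1e-04). Its levels did not overlap between the types, and in both types it was highest in mouse 2.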
